A study of Mus musculus with 11 samples.

Results

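The 41 genes described here encode chaperones, sensors and transport factors of the endoplasmic reticulum (ER) and the early secretory pathway. They were taken by gene symbol from a list whose rule sets no threshold on their values, though the list was drawn up with earlier results of these data known. All 41 were found among the 47643 gene symbols measured, and all 41 passed the filter on low values, as did 11979 symbols in all. The libraries came from mice of a mixed strain (50% CD-1, 50% C57Bl/6) aged 9 to 12 weeks. Act mice overexpress activin A from an INHBA transgene that the keratin 14 promoter drives in keratinocytes, so that fibroblasts receive the protein from the neighbouring epithelium, and WT mice served as controls. Live CD45-negative, CD140a-positive cells, which were also negative for CD3, CD11b and F4/80, were sorted from unwounded back skin (NS) and from excisional wounds at day 5 after injury (5dw). WT and Act normal skin gave 3 libraries each, WT wounds 3 and Act wounds 2, each made from RNA pooled over 3 mice.

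Secreted proteins enter the ER through the Sec61 channel, lose their signal peptide, are folded by chaperones such as BiP (Hspa5) and by disulfide isomerases, and leave in vesicles with a COPII coat. When unfolded protein accumulates, the sensors IRE1 (Ern1), ATF6 and PERK raise the transcription of chaperone and transport genes, partly through the transcription factor XBP1. Fibroblasts are professional secretory cells, and procollagen is among the largest cargoes that the pathway carries.

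The genes that the sensors control often share short promoter motifs, and these were looked up in the mouse RefSeq promoter windows of GRCm38.p6, which run from 250 bases upstream to 50 bases downstream of a transcription start and cover 31 of the 41 genes. The ER stress response element ERSE (CCAAT and CCACG with 9 free bases between them, searched on both strands, as were the others) was found in 7 of these 31 genes (22.6%) and in 0.119% of all 32851 windows. These were Hspa5, Hsp90b1, Dnajc3, Creld2, Calr, Canx and Pdia6, all of them folding genes. The XBP1 site UPRE (TGACGTGG) was found in Sec23a, Sec24d and Kdelr3 (9.68%, against 0.676% of all windows), all of them transport genes. The shorter ERSE-II (ATTGG and CCACG with 1 free base between them) was found in Dnajb11 alone (3.23%, against 0.0365%). For each motif the first share counts genes, of which 31 had 33 windows, and the second counts single windows. The motifs were chosen because they are the known elements of this pathway, and a match is a description of the letters and not of a bound factor. The matches that lie upstream of the start are shown with their surroundings, with the matched letters in capitals and each sequence on the strand of its gene.
Hspa5 (chr2:34772020-34772048, + strand): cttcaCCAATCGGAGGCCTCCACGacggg
Hsp90b1 (chr10:86705521-86705668, - strand): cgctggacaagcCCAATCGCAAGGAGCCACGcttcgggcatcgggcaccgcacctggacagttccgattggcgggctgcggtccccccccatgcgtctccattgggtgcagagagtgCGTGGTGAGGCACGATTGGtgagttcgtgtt
Dnajc3 (chr14:118937815-118937857, + strand): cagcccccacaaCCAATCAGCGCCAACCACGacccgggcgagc
Creld2 (chr15:88819508-88819550, + strand): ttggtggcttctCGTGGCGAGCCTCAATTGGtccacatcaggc
Calr (chr8:84847063-84847105, - strand): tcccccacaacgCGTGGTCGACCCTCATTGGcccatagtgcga
Canx (chr11:50325788-50325830, - strand): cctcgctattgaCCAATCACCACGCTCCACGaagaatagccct
Pdia6 (chr12:17266479-17266521, + strand): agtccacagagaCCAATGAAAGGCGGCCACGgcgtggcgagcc
Sec24d (chr3:123267465-123267482, + strand): gcgccTGACGTGGcacta
Kdelr3 (chr15:79516366-79516397, + strand): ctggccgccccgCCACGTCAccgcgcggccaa

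Values are RPKM, reads scaled by transcript length and by the mapped reads of the library. The mapped totals, recovered from the RPKM values and exon lengths, were 18649321 to 29718956 in the NS and Act 5dw libraries and 38740404 to 39702138 in the WT 5dw libraries, and the part of this gap in the results was not tested. By this estimate at least 171 reads lay behind every value of the 41 genes. Pdgfra, the gene of the sorted antigen CD140a, was at 29.6 to 65.3 RPKM in every library, and Ptprc (CD45) stayed under 0.0498 RPKM. Library Act NS 1 had the lowest sum of RPKM over all genes (225686) and over the 41 genes (1728). The 4 groups were fitted together in limma on log2(RPKM + 0.5), and a change is called at an adjusted p under 0.05. The samples are separate pools by label, and the p-values measure the spread between these pools. In bulk RNA, fewer cells of a type and less RNA per cell cannot be told apart.

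The summed level of the secretory pathway genes was higher in wound fibroblasts of both genotypes, while the log2FC of most other genes was below 0. Of the 41 genes, 24 in WT and 21 in Act mice were not called, and 12 and 8 had a log2FC below 0. Their summed level was 2130 to 2717 RPKM in WT NS and 1728 to 2335 in Act NS. It was 2983 to 3200 RPKM in WT 5dw and 2864 to 3009 in Act 5dw, so that every wound library lay above every NS library. As a share of all RPKM this was 0.729 to 0.977% in NS and 1.16 to 1.28% in 5dw. In WT mice 13 of the 41 genes were called higher (9.45% of all genes tested) and 4 lower (48.8% of all genes). In Act mice, whose libraries are separate from those of WT mice, 18 were higher (9.04% of all genes) and 2 lower (36.5%). The median log2FC of the 41 genes was 0.26 in WT and 0.42 in Act mice, while that of all genes was −0.40 and −0.31.

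The counts turned on how the libraries were scaled. Median-ratio scaling, which sets the typical gene to no change, divided the NS libraries by 0.981 to 1.255 and the wound libraries by 0.832 to 0.862. It brought the median log2FC of all genes to 0.01 in both genotypes and gave 31 genes higher and 1 lower in WT mice (23.4% and 21.2% of all genes). In Act mice it gave 33 higher and 0 lower (20.3% and 20.4%) in limma, and 34 of the 41 had an unadjusted p under 0.05 (49.5% of all genes), 33 of them higher and 1 lower. Limma-voom also gave 0 lower. Values are as deposited below unless given as after scaling. A call said to be after scaling only, or as deposited only, compares just these settings. As deposited, 13 genes were called higher in both genotypes (7.4% of all genes), and all 13 were among the 31 called higher in both after scaling (17.8%). Called lower in both were Sdf2l1 and Sec23b (34.1% of all genes), and no gene after scaling (16.6%). The WT count of 13 was 8 without WT 5dw replicate 1 and the Act count of 18 was 7 without Act 5dw replicate 3. The WT count of 4 lower genes was 7 without WT NS replicate 1. After scaling, the counts of higher genes stayed between 29 and 33 whichever library was left out.

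**Figure D1:**
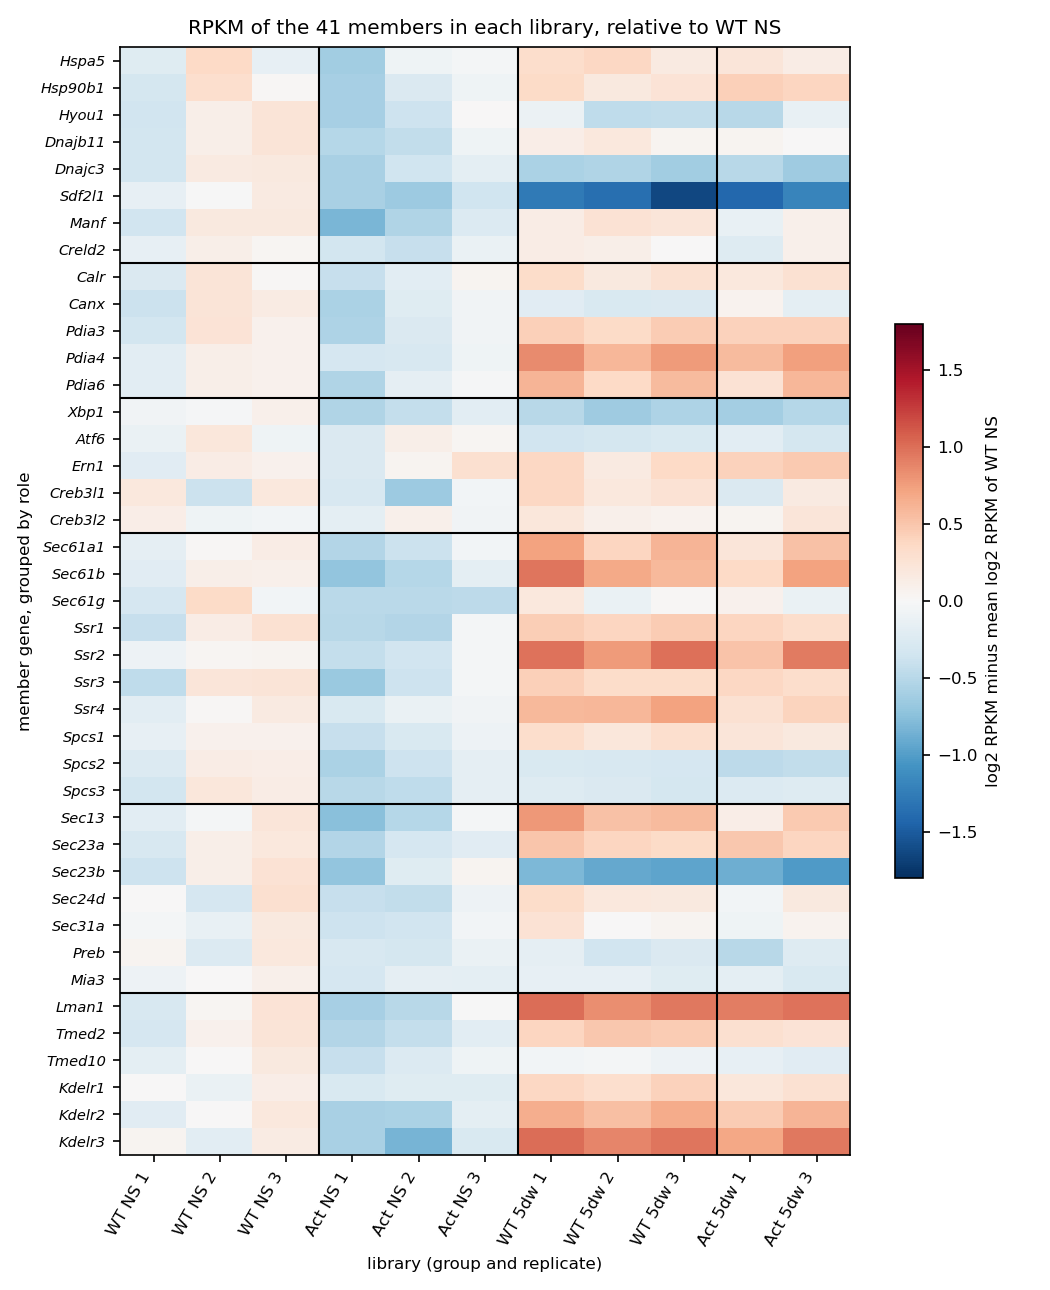
Heat map of the 41 genes (rows, grouped by role) in the 11 libraries (columns). Colour gives log2 RPKM minus the mean log2 RPKM of WT NS. The wound columns are red for most rows of the disulfide isomerases, translocation and retrieval genes, and blue for Sdf2l1 and Sec23b.

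Among the 8 folding chaperones, none was called higher and 2 were lower in WT wounds (9.45% and 48.8% of all genes). In Act wounds 1 was higher and 1 lower (9.04% and 36.5%). After scaling 5 were higher in each genotype (23.4% of all genes in WT and 20.3% in Act mice). Sdf2l1 alone was then lower in WT mice (21.2%) and none in Act mice (20.4%). The same shares are the background of the counts of the other roles. Hspa5 (BiP, chromosome 2, 34771970 to 34777547), the Hsp70 chaperone of the ER lumen, was the most abundant of all 41 genes. It stood at 280.4, 416 and 295 RPKM in WT NS and at 211, 309 and 319 in Act NS. It stood at 406, 419 and 363 RPKM in WT 5dw and at 378 and 355 in Act 5dw. The WT groups overlapped, because 1 WT NS library was as high as the wounds. The log2FC of Hspa5 was 0.28 ± 0.20 (SE) in WT mice (adjusted p = 0.235) and 0.41 ± 0.22 in Act mice (adjusted p = 0.143). After scaling it was called higher in both, with 0.76 (adjusted p = 0.00574) and 0.78 (adjusted p = 0.0098).

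Hsp90b1 (Grp94), the Hsp90 of the ER, was called in Act mice only as deposited. It was at 130, 165 and 186 RPKM in Act NS and at 265 and 257 in Act wounds, with a log2FC of 0.72 ± 0.20 (adjusted p = 0.0136). In WT mice it was at 158, 243 and 199 RPKM in NS and at 251, 222 and 233 in wounds, with a log2FC of 0.25 ± 0.18 (adjusted p = 0.241). The Act groups were apart and the WT groups overlapped. The Act call was lost without either Act 5dw library (adjusted p = 0.0708 and 0.0629), and after scaling both changes were called (0.73 and 1.09).

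Sdf2l1 (chromosome 16, 17130138 to 17132383), a small partner of the ER Hsp40 Dnajb11 that keeps clients soluble, went the other way. Its RPKM was 18.03, 20.0 and 22.4 in WT NS and 13.4, 12.7 and 15.6 in Act NS. It was 8.34, 7.83 and 6.42 in WT wounds and 7.52 and 8.77 in Act wounds. All 5 wound libraries lay below all 6 NS libraries. Its log2FC was −1.36 ± 0.14 in WT mice (adjusted p = 2.93e-05) and −0.74 ± 0.16 in Act mice (adjusted p = 0.00322). After scaling the fall in WT mice was still called (−0.90, adjusted p = 0.000363), and the Act value was −0.39 (adjusted p = 0.0568). In WT mice 8.07% of all genes had a lower log2FC, and in Act mice 22.5%.

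Dnajc3 (p58IPK), a co-chaperone that also restrains PERK, was called lower in WT wounds, at 29.4, 41.1 and 41.6 RPKM in NS and 24.8, 25.2 and 23.8 in 5dw. The log2FC was −0.58 ± 0.16 (adjusted p = 0.00881) as deposited and −0.10 after scaling (adjusted p = 0.538). In Act mice it was 24.7 to 32.6 RPKM in NS and 23.8 and 26.2 in 5dw, and the log2FC of −0.19 ± 0.17 (adjusted p = 0.4) became 0.18 after scaling. The other 4, Hyou1 (a nucleotide exchange factor for BiP), Dnajb11, Manf and Creld2, had a log2FC between −0.32 and 0.20 in WT and between 0.00 and 0.51 in Act mice, with no call. Of these, all but Hyou1 were called higher after scaling in both genotypes.

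Of the 5 lectin chaperones and disulfide isomerases, 2 were called higher in WT and 3 in Act mice, and 4 and 5 after scaling, with none lower. Pdia4 (ERp72; chromosome 6, 47796141 to 47813430), which forms disulfide bonds in new proteins, was at 47.3, 58.4 and 57.2 RPKM in WT NS and 44.0, 44.4 and 51.5 in Act NS. In wounds it was at 97.4, 81.8 and 91.6 RPKM in WT and 80.3 and 89.7 in Act mice, with no overlap. The log2FC was 0.73 ± 0.13 in WT (adjusted p = 0.001) and 0.86 ± 0.15 in Act mice (adjusted p = 0.00111), and 1.21 and 1.23 after scaling. Pdia6, a partner isomerase of BiP, was called in both genotypes with 0.51 ± 0.17 (adjusted p = 0.0227) and 0.66 ± 0.19 (adjusted p = 0.0141), and 0.98 and 1.03 after scaling.

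Pdia3 (ERp57), which works with the lectin chaperones, had every wound library above every NS library, 273 to 295 against 146 to 256 RPKM. It was called in Act mice (0.71 ± 0.19, adjusted p = 0.0124) and stood at 0.41 ± 0.17 in WT mice, with an adjusted p of 0.063. With the replicate number as a block, that value was called (adjusted p = 0.0457). This fit used all libraries, among them those of Act 5dw, whose numbers were not taken as pairs. After scaling Pdia3 was called in both genotypes (0.89 and 1.08). The lectin chaperone Calr, in the ER lumen, was at 290.1 to 324 RPKM in wounds and 193 to 303 in NS, and was called after scaling only. Canx, its membrane-bound relative, was at 53.9, 83.1 and 77.9 RPKM in WT NS and 61.0, 58.5 and 59.0 in WT 5dw. Its log2FC in WT mice was −0.24 ± 0.18 (adjusted p = 0.273) and turned to 0.23 after scaling (adjusted p = 0.242). Without WT NS replicate 1 it was −0.43 and called lower (adjusted p = 0.046). In Act mice Canx was at 47.4 to 67.2 RPKM in NS and at 73.5 and 62.2 in 5dw, with a log2FC of 0.22 ± 0.20 (adjusted p = 0.39) that was called after scaling (0.59, adjusted p = 0.0205).

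Of the 5 sensors and transcription factors, 1 was called lower in WT wounds and none in either direction in Act wounds by limma, where Ern1 alone had an unadjusted p under 0.05 and leaned higher. After scaling 3 were higher in each genotype. Xbp1 (chromosome 11, 5520659 to 5525893), whose mRNA is spliced by IRE1 to give the active factor, was at 43.0, 44.5 and 48.0 RPKM in WT NS and at 31.9, 29.1 and 30.8 in WT 5dw. In Act mice it was at 31.0, 33.6 and 39.7 RPKM in NS and 29.5 and 31.8 in 5dw. The WT groups were apart and the Act groups overlapped. It was called lower in WT wounds (−0.55 ± 0.12, adjusted p = 0.00294) and not in Act wounds (−0.17 ± 0.14, adjusted p = 0.319). After scaling the values were −0.08 (adjusted p = 0.526) and 0.19 (adjusted p = 0.185). Gene-level RPKM does not separate spliced from unspliced Xbp1.

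Ern1 (IRE1; chromosome 11, 106394650 to 106487852), the lowest of these 5 in NS, stood at 4.93, 6.28 and 5.99 RPKM in WT NS and 4.77, 5.88 and 6.95 in Act NS. It stood at 7.42, 6.35 and 7.33 RPKM in WT 5dw and at 7.63 and 7.9 in Act 5dw. Its wound values were above the NS values of the same genotype, but the log2FC of 0.28 ± 0.14 (adjusted p = 0.121) and 0.39 ± 0.16 (adjusted p = 0.0692) were not called, and after scaling both were (0.72 and 0.74, adjusted p = 0.000796 and 0.00166). The Act value was also called without Act NS replicate 3 (0.51, adjusted p = 0.0293). Atf6, the sensor that is cleaved in the Golgi, was at 8.43 to 11.5 RPKM in NS and 7.92 to 8.81 in 5dw. Its log2FC of −0.30 ± 0.13 in WT (adjusted p = 0.0646) and −0.20 ± 0.14 in Act mice (adjusted p = 0.268) turned to 0.16 and 0.15 after scaling, with no call. Without Act NS replicate 1, which shares the estimate of the spread, the WT value was called lower (adjusted p = 0.037). Creb3l1 (OASIS), a membrane-bound factor known for its part in collagen production, was the most abundant of the 5. It ranged from 49.5 to 89.4 RPKM in NS and from 65.2 to 101 in 5dw and was called after scaling only, with 0.74 in WT (adjusted p = 0.0135) and 0.65 in Act mice (adjusted p = 0.0438), and limma-voom did not keep the Act call. Its relative Creb3l2 was at 12.0 to 14.8 RPKM in NS and 14.1 to 15.8 in 5dw, and was also called after scaling only.

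**Figure D2:**
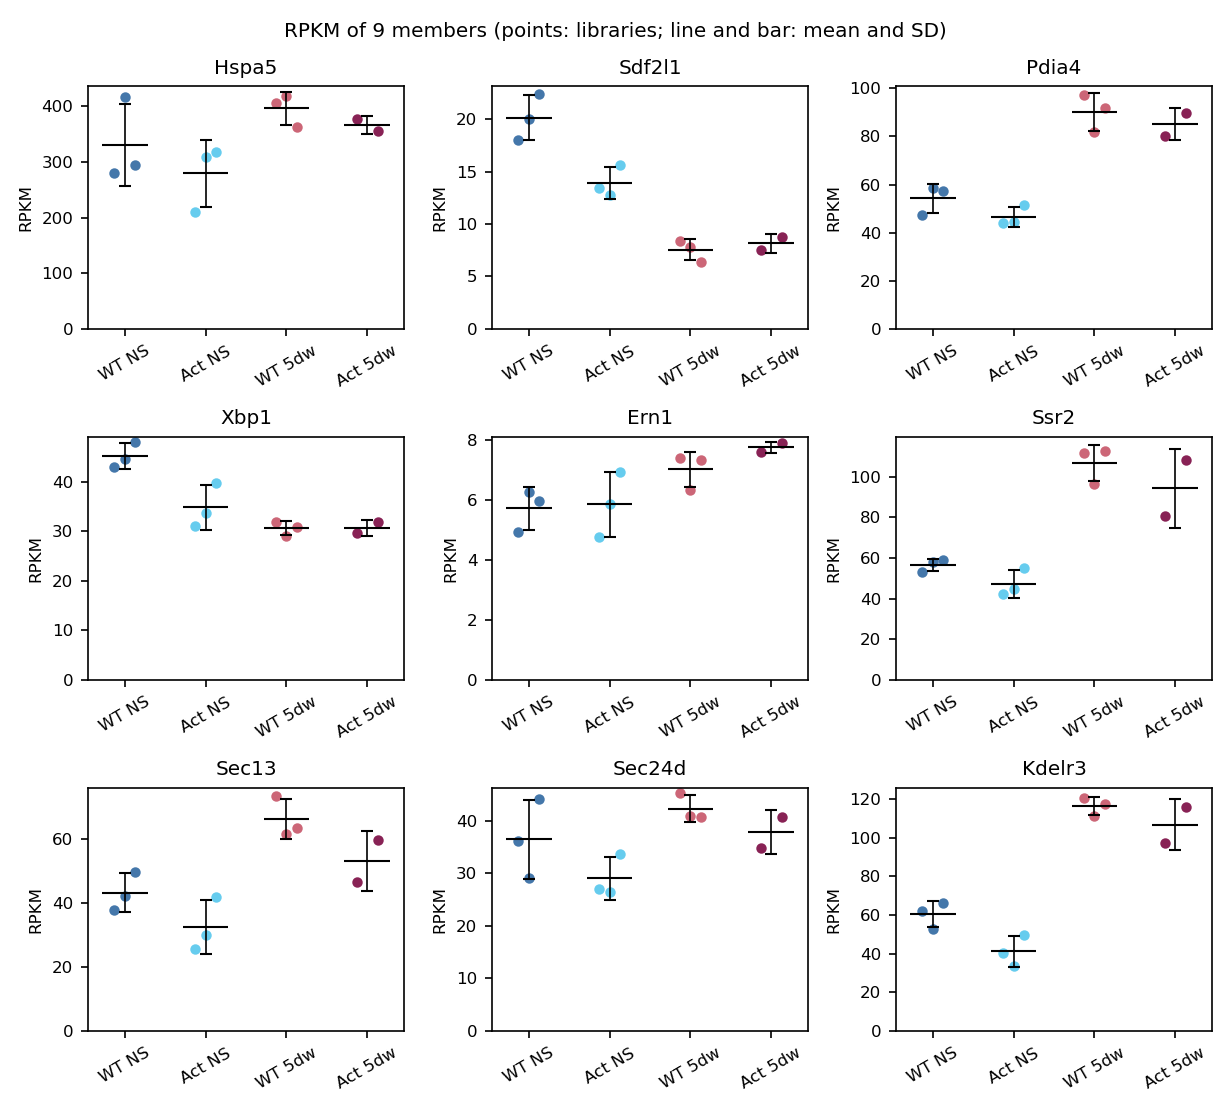
RPKM (linear axes from 0) of 9 of the genes in each library of the 4 groups; points are libraries, the line is the mean and the bar the SD. The wound values of Pdia4, Ssr2 and Kdelr3 lie above all NS values, those of Sdf2l1 lie below them, and those of Hspa5 and Sec24d overlap with NS.

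Of the 10 translocation and signal peptide genes, 4 were called higher in WT and 7 in Act wounds, and 8 and 9 after scaling, with none lower under either scaling. Sec61a1 (chromosome 6, 88503579 to 88518905), the pore subunit of the translocation channel, was at 32.4, 36.7 and 39.7 RPKM in WT NS and 25.2, 27.7 and 35.0 in Act NS. In wounds it was at 59.5, 47.2 and 55.4 RPKM in WT and 42.2 and 52.0 in Act mice, above all NS libraries. The log2FC was 0.57 ± 0.16 (adjusted p = 0.0107) and 0.68 ± 0.18 (adjusted p = 0.00967), the latter lost without Act 5dw replicate 3 (adjusted p = 0.0995), and 1.04 and 1.05 after scaling. The small channel subunit Sec61b rose by 0.74 ± 0.17 in WT (adjusted p = 0.00402) and 0.99 ± 0.19 in Act mice (adjusted p = 0.00211), with 1.21 and 1.35 after scaling, while the other small subunit Sec61g had 0.03 ± 0.15 and 0.44 ± 0.17 (adjusted p = 0.873 and 0.0574) and was called after scaling only (0.49 and 0.79, adjusted p = 0.0278 and 0.00532).

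All 4 subunits of the translocon-associated protein complex, Ssr1 to Ssr4, which assists the entry of some signal peptides, were higher in every wound library than in every NS library. Ssr2 (chromosome 3, 88575876 to 88588419) changed most, from 53.3, 57.9 and 58.8 RPKM in WT NS and 42.2, 44.7 and 55.1 in Act NS to 112, 96.6 and 113 in WT wounds and 80.6 and 108 in Act wounds. Its log2FC was 0.91 ± 0.15 (adjusted p = 0.000585) and 0.98 ± 0.17 (adjusted p = 0.00107), and 1.38 and 1.35 after scaling. Ssr4 was called in both genotypes (0.62 ± 0.12 and 0.47 ± 0.14, adjusted p = 0.00151 and 0.0155). The latter was lost without Act 5dw replicate 3 (adjusted p = 0.108) and with only the groups compared in the fit (adjusted p = 0.0563). After scaling the values were 1.08 and 0.83.

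As deposited, Ssr3 was called in Act mice (0.70 ± 0.23, adjusted p = 0.0278) and not in WT mice (0.36 ± 0.20, adjusted p = 0.149). Its Act call was lost without Act NS replicate 1 or 2 or either Act 5dw library (adjusted p = 0.0603 to 0.115), and without a filter on low values (adjusted p = 0.057). Ssr1 was likewise called in Act mice only as deposited (0.69 ± 0.20, adjusted p = 0.0181, against 0.42 ± 0.18 in WT mice, adjusted p = 0.0699). After scaling both genes were also called in WT mice, Ssr3 with 0.84 (adjusted p = 0.00341) and Ssr1 with 0.89 (adjusted p = 0.00168).

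The calls of the 3 signal peptidase subunits, which cut off the signal peptide, differed in Act mice. The subunits were not tested against each other. Spcs1 was at 23.7 to 33.3 RPKM in NS and 35.8 to 39.4 in 5dw and was called in Act mice (0.46 ± 0.14, adjusted p = 0.0184), with 0.27 ± 0.12 in WT mice (adjusted p = 0.0755) that was called after scaling (0.74, adjusted p = 0.000214). Spcs2 was at 18.01, 23.4 and 23.3 RPKM in WT NS and 17.7, 17.6 and 17.4 in WT 5dw, with a log2FC of −0.28 ± 0.14 (adjusted p = 0.0977) that turned to 0.19 after scaling (adjusted p = 0.198). Without WT NS replicate 1 it was −0.40 and called lower (adjusted p = 0.0266). In Act mice Spcs2 was at 14.5 to 19.1 RPKM in NS and at 15.5 and 15.7 in 5dw, with −0.09 ± 0.15 (adjusted p = 0.66), and 0.27 after scaling (adjusted p = 0.107). Spcs3 had −0.26 ± 0.15 in WT and 0.13 ± 0.17 in Act mice, with no call, and 0.20 and 0.49 after scaling, the latter called. The annotation lists pseudogenes of Spcs2, Calr and Tmed10, and how reads that fit several places were counted is unknown, so these 3 values are less certain.

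**Figure D3:**
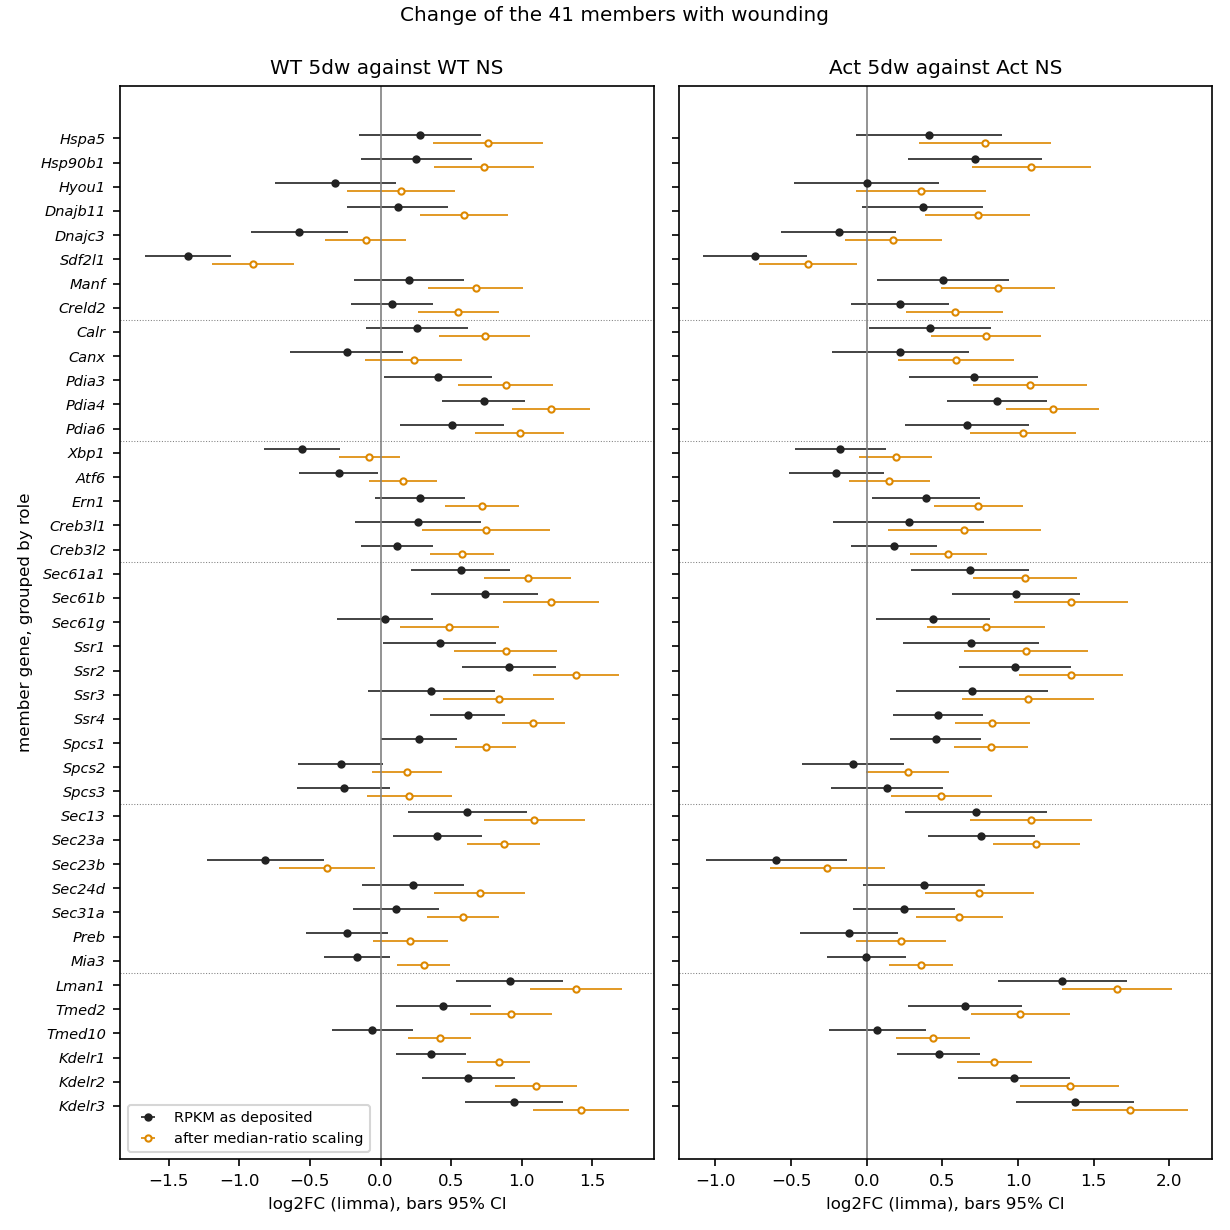
Log2FC of 5dw against NS from limma for the 41 genes, in WT mice (left) and Act mice (right), with 95% confidence intervals as bars. Filled points are RPKM as deposited and open points are values after median-ratio scaling. The open points lie to the right of the filled ones throughout, and Sdf2l1 and Sec23b stay left of 0 under both.

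Of the 7 genes of the COPII coat and ER exit, 2 were called higher and 1 lower in each genotype, and 5 higher and 0 lower after scaling. Sec13 (chromosome 6, 113728062 to 113740743), of the outer coat, was at 37.6, 42.0 and 49.7 RPKM in WT NS and 25.5, 29.9 and 41.8 in Act NS. It was at 73.3, 61.5 and 63.4 RPKM in WT 5dw and at 46.3 and 59.5 in Act 5dw, apart within each genotype. The log2FC was 0.62 ± 0.19 (adjusted p = 0.0172) and 0.72 ± 0.21 (adjusted p = 0.0179), and 1.09 in each genotype after scaling. The WT call was lost without WT NS replicate 1 or WT 5dw replicate 1 (adjusted p = 0.0586 and 0.0643), and the Act call without Act NS replicate 2 or Act 5dw replicate 3 (adjusted p = 0.0502 and 0.154) or with only the groups compared (adjusted p = 0.0611). Sec31a, the partner of Sec13, was at 36.8 to 53.7 RPKM in NS and 45.3 to 57.3 in 5dw and was called after scaling only.

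The paralogs Sec23a and Sec23b, which form the inner coat, went in opposite directions. Sec23a was at 14.0 to 22.9 RPKM in NS and 25.5 to 28.5 in wounds, and was called higher in both genotypes (0.40 ± 0.14, adjusted p = 0.0315, and 0.76 ± 0.16, adjusted p = 0.00325), with 0.87 and 1.12 after scaling. Sec23b (chromosome 2, 144556229 to 144590749) was at 5.89, 8.15 and 9.14 RPKM in WT NS and 4.66, 6.54 and 7.85 in Act NS. In wounds it was at 4.35, 4.01 and 3.95 RPKM in WT and 4.13 and 3.76 in Act mice, below all NS libraries. It was called lower in both (−0.82 ± 0.19, adjusted p = 0.00389, and −0.60 ± 0.21, adjusted p = 0.039). After scaling the values were −0.38 (adjusted p = 0.068) and −0.26 (adjusted p = 0.248), and the Act call was also lost without any one of 7 libraries. These were Act NS replicates 2 and 3, all WT 5dw libraries, which share the estimate of the spread, and both Act 5dw libraries (adjusted p = 0.0534 to 0.173). It was lost too without a filter (adjusted p = 0.0771) and with only the groups compared (adjusted p = 0.0718).

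Sec24d (chromosome 3, 123267455 to 123365641), the cargo-binding coat subunit whose loss impairs collagen export, was at 36.2, 29.1 and 44.1 RPKM in WT NS and 26.9, 26.5 and 33.6 in Act NS. It was at 45.2, 40.9 and 40.7 RPKM in WT 5dw and at 34.8 and 40.8 in Act 5dw. The WT groups overlapped and the Act groups were apart. It was not called as deposited and was called after scaling (0.70 in WT and 0.74 in Act mice, adjusted p = 0.00296 and 0.00459). In Act mice it was also called after another scaling, quantile normalization (0.55, adjusted p = 0.0369). Mia3 (TANGO1), which loads procollagen into the vesicles, was at 24.2 to 31.9 RPKM in NS and 24.8 to 27.1 in 5dw, with a log2FC of −0.17 ± 0.11 and 0.00 ± 0.12 that became 0.30 and 0.36 and was then called (adjusted p = 0.0147 and 0.0125). Preb, the exchange factor that starts coat assembly, was not called under either scaling (−0.24 and −0.11 as deposited, 0.21 and 0.23 after scaling).

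Cargo receptors and retrieval genes had the largest share of called genes among the 6 roles. Of 6 genes, 5 were called higher in both genotypes, and all 6 after scaling. Kdelr3 (chromosome 15, 79516411 to 79527739), one of 3 receptors that return escaped ER proteins carrying a KDEL tail from the Golgi, had the largest log2FC of the 41 genes in each genotype. It was at 62.2, 52.9 and 66.4 RPKM in WT NS and 40.3, 33.7 and 49.7 in Act NS. It was at 121, 111 and 118 RPKM in WT 5dw and at 97.3 and 116 in Act 5dw, with no overlap. Its log2FC was 0.94 ± 0.16 (adjusted p = 0.000619) and 1.37 ± 0.18 (adjusted p = 0.00019), above those of 95.3% and 97.7% of all genes, and 1.42 and 1.74 after scaling. The other KDEL receptors were called with smaller changes, Kdelr2 with 0.62 ± 0.15 and 0.97 ± 0.17, and Kdelr1 with 0.36 ± 0.11 and 0.48 ± 0.12 (adjusted p between 0.00113 and 0.0179). After scaling these were 1.10 and 1.34 for Kdelr2 and 0.84 in each genotype for Kdelr1.

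Lman1 (ERGIC-53), a lectin that carries glycoproteins out of the ER, was close behind Kdelr3. It stood at 17.4, 21.9 and 25.3 RPKM in WT NS and 14.1, 15.04 and 21.1 in Act NS, against 42.9, 38.1 and 40.98 in WT wounds and 40.4 and 41.9 in Act wounds. Its log2FC was 0.92 ± 0.17 (adjusted p = 0.00121) and 1.29 ± 0.19 (adjusted p = 0.000468), and 1.39 and 1.66 after scaling. The p24 family member Tmed2 was called in both genotypes (0.44 ± 0.15 and 0.65 ± 0.17, adjusted p = 0.0282 and 0.0104), with 0.92 and 1.02 after scaling. Tmed10, its partner in the p24 complex, was at 55.0, 62.2 and 70.1 RPKM in WT NS and 60.1, 60.8 and 58.0 in WT 5dw, with −0.06 ± 0.13 (adjusted p = 0.718) that turned to 0.42 after scaling and was then called (adjusted p = 0.00654). In Act mice Tmed10 was at 46.4 to 58.7 RPKM in NS and 55.9 and 54.1 in 5dw, with 0.07 ± 0.15 (adjusted p = 0.719), and 0.44 after scaling (adjusted p = 0.0103).

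Over both genotypes, 16 of the 41 genes had all 5 wound libraries above all 6 NS libraries (8.45% of all genes), and 30 after scaling (21.1%). These 16 were Pdia3, Pdia4, Pdia6, Sec61a1, Sec61b, Ssr1 to Ssr4, Spcs1, Sec23a, Lman1, Tmed2 and the 3 KDEL receptors. Sdf2l1 and Sec23b had all wound libraries below all NS libraries (38.9% of all genes), and after scaling Sdf2l1 alone (19.7%).

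The ratio of related genes within a library does not depend on how that library is scaled. The pairs were picked after the values were seen, so the ratios are a description without a test. Sec23a was 2.23 to 3.01 times as high as Sec23b in NS and 6.46 to 6.99 times in wounds. Kdelr3 relative to Kdelr1 was 0.407 to 0.646 in NS and 0.878 to 0.997 in wounds. Kdelr2 relative to Kdelr1 was closer, at 0.70 to 0.977 and 1.06 to 1.13. Ern1 relative to Atf6 was 0.533 to 0.676 in NS and 0.785 to 0.974 in wounds. Sdf2l1 relative to its partner Dnajb11 was 0.667 to 0.917 in NS and 0.249 to 0.351 in wounds. In each of these pairs the NS and wound libraries did not overlap, whereas they overlapped in 2 others. Kdelr3 relative to Kdelr2 was 0.581 to 0.834 in NS and 0.828 to 0.891 in wounds, and Creb3l1 relative to Creb3l2 was 3.43 to 6.78 and 4.64 to 6.54. RPKM is a level per length, so these are ratios of transcript levels.

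**Figure D4:**
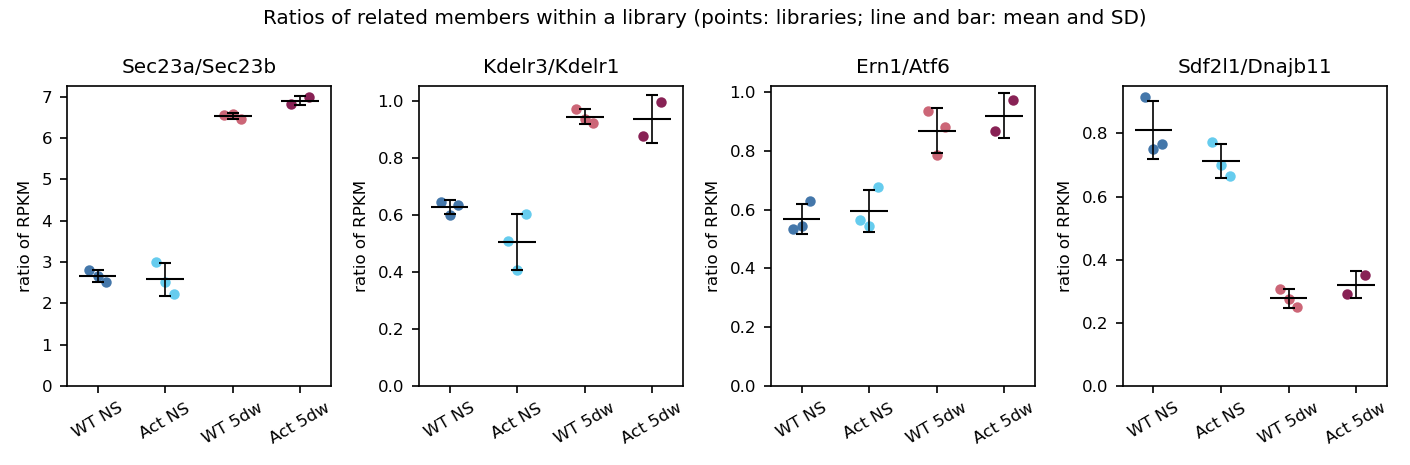
Ratio of the RPKM of 2 related genes in each library (linear axes from 0), for 4 pairs; points are libraries, the line is the mean and the bar the SD. The wound libraries lie between 6.46 and 6.99 for Sec23a/Sec23b, above the NS libraries at 2.23 to 3.01, and below the NS libraries for Sdf2l1/Dnajb11.

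The calls differed between the wounding comparisons for 7 genes as deposited, Dnajc3 and Xbp1, called lower in WT mice only, and Hsp90b1, Pdia3, Ssr1, Ssr3 and Spcs1, called higher in Act mice only. The difference itself was tested as the interaction of wounding and genotype, and limma called none of the 41 genes under either scaling (0% of all genes), nor did limma-voom. At an unadjusted p under 0.05 there was 1 gene (3.34% of all genes), and 1 after scaling (3.73%). This was Sdf2l1 as deposited, with a smaller fall in Act mice (difference 0.63 ± 0.21, adjusted p = 0.999), and again Sdf2l1 after scaling (0.52).

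Between the genotypes, unwounded Act fibroblasts had lower levels for most of the 41 genes, but no single gene passed the test. In Act NS against WT NS the median log2FC of the 41 genes was −0.31, against −0.11 for all genes, and 40 of 41 were below 0 (73.4% of all genes). After scaling the median was −0.18, against 0.01 for all genes, and 38 of 41 were below 0 (47.8%). None was called by limma under either scaling (0.0167% of all genes) or by limma-voom, and 13 had an unadjusted p under 0.05 (6.88% of all genes), or 5 after scaling (4.78%). Library Act NS 1, with the lowest sum of RPKM, was the lowest of the 6 NS libraries for 33 of the 41 genes. Without this library 0 genes were called, and its part in the medians and in the number of genes below 0 was not tested. Keratinocyte markers leaned the other way in the same comparison, with 12 of 13 above 0 (median 0.41) and none called by limma, 2 of them at an unadjusted p under 0.05. Their summed level was 1256, 2085 and 2271 RPKM in WT NS and 1261, 3029 and 4707 in Act NS, and their part in the genotype values was not tested. In 6 genes every Act library was below every WT library (7.98% of all genes), and in 3 after scaling (3.61%). These 3 were Sdf2l1, Xbp1 and Kdelr3, and they also had the smallest p-values as deposited. After scaling the limma p-value of Manf (0.0255) was below that of Xbp1 (0.0289).

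Sdf2l1 was at 12.7 to 15.6 RPKM in Act NS and 18.03 to 22.4 in WT NS, with a log2FC of −0.52 (95% CI −0.82 to −0.21). Kdelr3 was at 33.7 to 49.7 RPKM against 52.9 to 66.4 (−0.56, 95% CI −0.91 to −0.21). Xbp1 was at 31.0 to 39.7 RPKM against 43.0 to 48.0 (−0.38, 95% CI −0.65 to −0.11). All 3 had an adjusted p of 0.679 in limma and are not called.

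The same comparison was made in the wounds. The median log2FC of Act 5dw against WT 5dw was −0.08 for the 41 genes and −0.04 for all genes, and 28 of 41 were below 0 (59.9% of all genes). None was called by limma (0.0334% of all genes, and 0.0167% after scaling) or by limma-voom, and 0 had an unadjusted p under 0.05 (3.22% of all genes), or 1, Ssr4, after scaling (4.15%). The smallest p-values were those of Ssr4, Sec13 and Creb3l1. Ssr4 was at 16.6 and 18.2 RPKM in Act 5dw and 20.6, 20.9 and 22.7 in WT 5dw (−0.29, 95% CI −0.59 to 0.01). Sec13 had −0.32 (95% CI −0.79 to 0.15) and Creb3l1 −0.32 (95% CI −0.82 to 0.18), with an adjusted p of 1 for all 3. The 95% intervals of all 41 genes lay within −0.82 and 0.63.

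**Figure D5:**
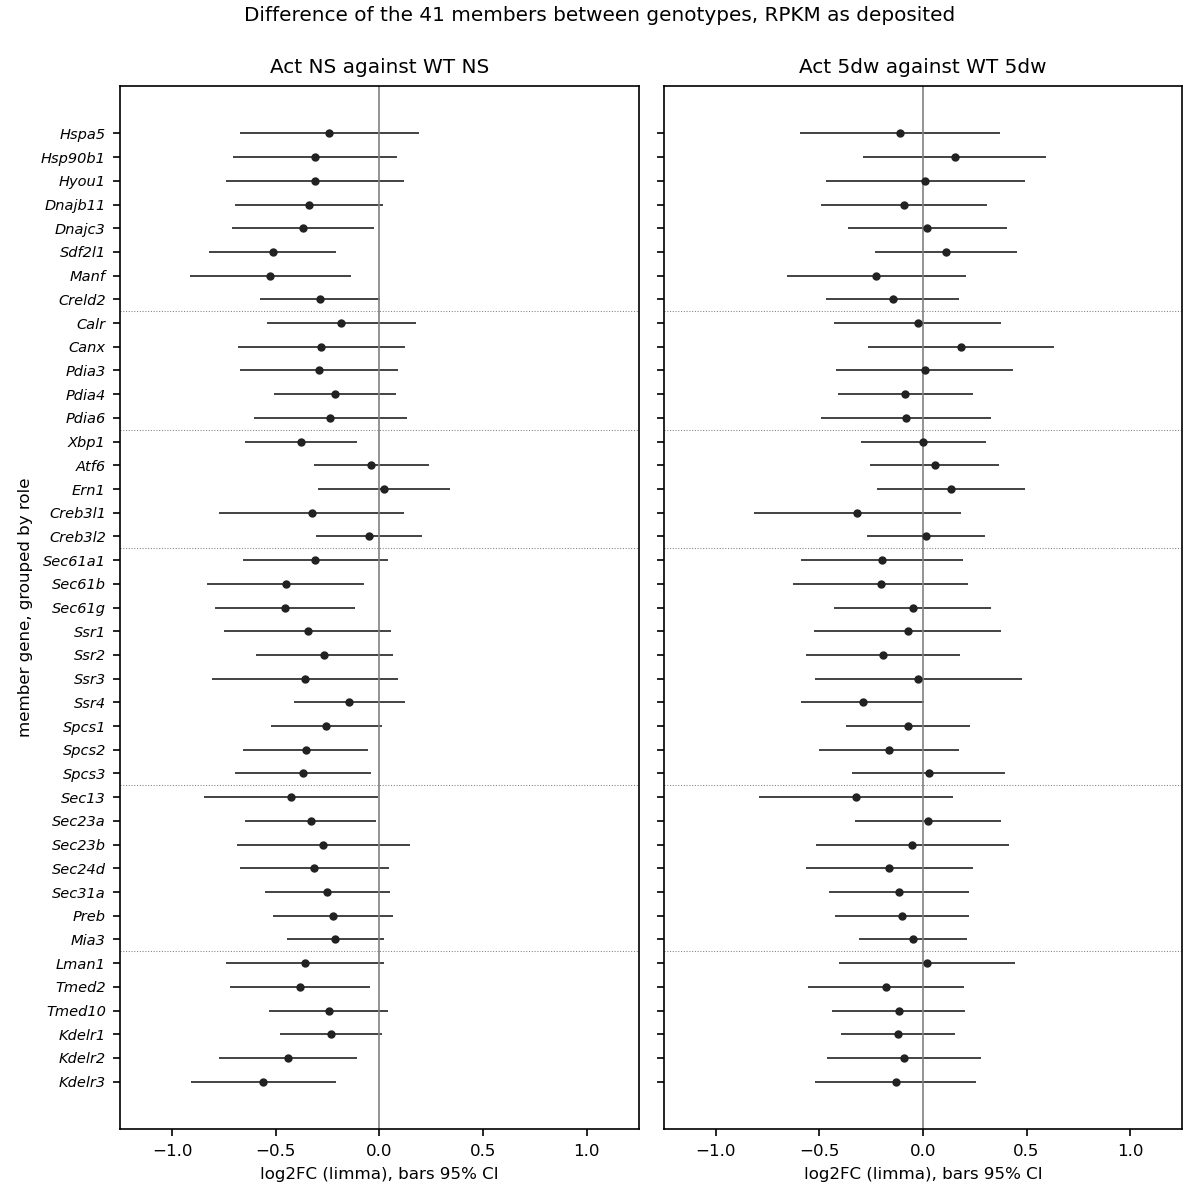
Log2FC of Act against WT fibroblasts from limma for the 41 genes, in normal skin (left) and 5-day wounds (right), with 95% confidence intervals as bars, on RPKM as deposited. In normal skin 40 of 41 points lie left of 0, and in wounds the points lie on both sides.

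A list of 126 further genes of the pathway was read alongside, of which 121 passed the filter. In WT wounds 23 of these were called higher and 24 lower, and in Act wounds 29 and 10. After scaling these were 69 and 2, and 73 and 2. The shares of all genes given above (9.45% higher and 48.8% lower in WT, 9.04% and 36.5% in Act mice) are the background of these lists. After scaling the background was 23.4% higher and 21.2% lower in WT mice, and 20.3% and 20.4% in Act mice. The other disulfide isomerases and oxidases had 6 of 14 higher and 4 lower (Txndc11, Tmx2, Tmx3 and Ero1lb) in WT mice, and 8 higher and 1 lower (Ero1lb) in Act mice. After scaling 10 were higher and 0 lower in each genotype. Among them Pdia5 rose by 1.82 ± 0.12 (adjusted p = 1.48e-06) and 1.78 ± 0.13 (adjusted p = 5.94e-06), more than any of the 41 genes. P4hb, the isomerase that is also a subunit of the collagen prolyl hydroxylase, rose by 0.93 ± 0.14 and 1.06 ± 0.16 (adjusted p = 0.000384 and 0.000487). N-glycosylation genes had 6 of 14 higher and 2 lower (Stt3b and Magt1) in WT mice and 7 higher and 0 lower in Act mice, and 12 higher and 0 lower in each genotype after scaling, with Ostc, of the oligosaccharyltransferase, at 0.69 ± 0.14 and 1.04 ± 0.16 (adjusted p = 0.00176 and 0.000477).

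Of 21 other genes of ER exit and cargo transport, 5 were higher and 7 lower in WT mice, among the latter Sec24a, Sec24b and Sec24c, which are paralogs of Sec24d, Sec16a of the ER exit sites, and the p24 genes Tmed4, Tmed5 and Tmed7. In Act mice 5 were higher and 1, Sec24c, was lower. After scaling 11 were higher in each genotype, and Sec24c was lower in both (−0.36 and −0.49, adjusted p = 0.0216 and 0.00905). The COPI coat, which carries cargo back to the ER, had 1 of 11 higher in WT and 3 in Act mice, and 9 and 10 after scaling. Signal recognition and other translocon genes had 0 of 12 called by limma in WT mice (0 at an unadjusted p under 0.05) and 2 higher in Act mice, and 8 and 10 higher after scaling. The 7 other Hsp70 partners had no call by limma as deposited (1 in WT and 0 in Act mice at an unadjusted p under 0.05), and 5 and 6 were higher after scaling. Of 7 other sensors and proteases, Creb3 and Creb3l3 were higher and Mbtps1 lower in both genotypes, the last as deposited only.

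Of 17 genes of ER-associated degradation, which removes misfolded proteins, 1 was higher in each genotype, and 2 were lower in WT and 1 in Act mice. After scaling 5 were higher in WT and 4 in Act mice, with 0 lower. Herpud1, a stress-induced member, was called lower in both (−0.70 ± 0.14 and −0.48 ± 0.15, adjusted p = 0.00144 and 0.0249) and not after scaling (−0.23 and −0.11). Of 6 genes of the integrated stress response, Chac1 was called higher in WT mice (1.57 ± 0.27, adjusted p = 0.000788), with 0.76 ± 0.31 in Act mice (adjusted p = 0.0634) that was called after scaling (1.02, adjusted p = 0.0246), and Ddit3 (CHOP), the factor linked to cell death under stress, was called after scaling only (0.73 and 0.65). In the same list Ppp1r15b, a phosphatase subunit that reverses the response, was called lower in both genotypes (−0.88 ± 0.17 and −0.78 ± 0.19, adjusted p = 0.00146 and 0.00733) and in WT mice also after scaling (−0.41, adjusted p = 0.0364). After scaling this list had Ddit3, Trib3 and Chac1 higher in WT mice and Ddit3 and Chac1 in Act mice. The stress-induced relative of Ppp1r15b, Ppp1r15a, was called lower in WT mice as deposited only (−0.58 ± 0.19, adjusted p = 0.0219). Of 12 cytosolic chaperones, 6 were lower in WT and 5 in Act mice with 1 higher in each, and after scaling 4 were higher and 0 lower in WT and 6 higher and 1 lower in Act mice. None of the 121 genes was called by limma between Act NS and WT NS under either scaling, with 17 at an unadjusted p under 0.05 (against 6.88% of all genes), and 5 after scaling (against 4.78%).

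The changes of genes with and without a promoter motif overlapped, and their medians are a description. In WT wounds the 7 ERSE genes had a median log2FC of 0.25 (range −0.58 to 0.51, 1 higher and 1 lower), the 3 UPRE genes one of 0.40 (range 0.23 to 0.94, 2 higher), and the 20 genes with a window but no motif one of 0.19 (range −1.36 to 0.74, 5 higher and 3 lower). In Act wounds the medians were 0.41, 0.76 and 0.41. After scaling they were 0.73, 0.87 and 0.65 in WT mice.

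Transcripts of other cell types moved with wounding too. As background, 48.8% of all genes were called lower and 9.45% higher in WT mice, and 36.5% and 9.04% in Act mice. The summed level of 13 keratinocyte markers was 1256 to 4707 RPKM in NS and 128 to 1073 in 5dw, 12 of 13 were called lower in each genotype, and none was at 0 in any library. Of 8 pan-immune markers, 7 were at most 0.622 RPKM in every NS library and at most 0.413 in every wound library. The other, Arhgdib, was at 11.7 to 15.6 RPKM in NS and 9.19 to 12.4 in 5dw and was called lower in both genotypes as deposited only. The markers of plasma and B cells, cells with a large ER, summed to 23.4 to 53.6 RPKM in NS and 41.5 to 72.2 in 5dw, most of it Sdc1, which other cells express as well. Without Sdc1 the other 7 summed to 2.87 to 8.95 RPKM in NS and 2.44 to 3.05 in 5dw, with Jchain and Mzb1 under 0.441 RPKM and Ms4a1 at 0 in every library. Within these 7, Cd79b was called higher in both genotypes (0.0235 to 0.337 RPKM in NS and 1.10 to 1.75 in 5dw), while Cd79a and Ighm were called lower in both as deposited. Markers of further cell types went both ways. Of 4 endothelial markers that passed the filter, Pecam1 was called higher in both genotypes (1.40 ± 0.18 in WT and 1.45 ± 0.20 in Act mice) and Cdh5 in Act mice, while Tek was called lower in both (−1.94 ± 0.33 and −1.33 ± 0.37). Of 6 pericyte markers, Abcc9 was higher in both genotypes and Rgs5 in Act mice, while Cspg4 and Notch3 were lower in both and Mcam in WT mice. Of 3 macrophage markers, Csf1r was higher in WT mice and, after scaling, in both, while Cd68 was lower in Act mice as deposited. Of 10 fibroblast markers, Col1a1, Col1a2 and Col3a1 were called higher in wounds of both genotypes. Pdgfra, Dcn, Lum, Thy1 and Dpt were called lower in WT wounds and, except for Lum, in Act wounds. These counts, 5 and 4 of 10, were near the shares of all genes called lower. The medians of the list were −0.37 and −0.44, against −0.40 and −0.31 for all genes. After scaling Dcn and Dpt were lower in WT and Pdgfra, Dcn and Thy1 in Act wounds (21.2% and 20.4% of all genes). The part of keratinocyte RNA, of RNA input (100 ng in NS and 200 ng in 5dw) and of the cell mixture in these changes was not tested, and input and tissue cannot be told apart.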

How the data were processed

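Poly-A RNA of sorted fibroblasts (RIN above 6.8) was sequenced as stranded libraries with 100 bp reads. CLC Genomics Workbench served the authors for alignment to GRCm38 and for gene counts, and they deposited RPKM for 47643 symbols in 11 libraries; 1 Act 5dw library was excluded by the authors. They tested with edgeR's exact test, which needs counts and was not run here. Strand use and reads with several matches in their counting are not given in the sources used here.

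The 11979 genes that reached RPKM 1 in 2 or more libraries were fitted with limma-trend (limma 3.58.1, R 4.3.3) on log2(RPKM + 0.5), with 4 group means, which leaves 7 residual degrees of freedom. Comparisons were 5dw with NS in each genotype, Act with WT in each tissue, and their interaction, with Benjamini-Hochberg adjustment over all 11979 genes within each. Fold changes on this scale understate the change of low genes. Fits were tested on simulated data. Exact permutation of 3 against 3 libraries cannot go below p = 0.1, so no such test was used.

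The mapped total of a library was estimated as the most frequent total that a gene with 1 read would imply, from its RPKM and GENCODE M21 exon length. With these totals 78.22 to 79.52% of low values were whole reads (tolerance 0.03), and 41327 genes had usable reads. Gene positions are from GENCODE M21, promoters from RefSeq.

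Libraries of the same replicate number deviated together in WT mice (correlations 0.188, 0.120 and 0.109 between WT 5dw and WT NS) and in NS (0.554, 0.423 and 0.334 between Act NS and WT NS), each above 0.1, so the numbers were taken to pair these; the labels do not say why. Act wounding (0.0187 and 0.143) and the wound genotypes (−0.0777 and 0.189) have 2 pairs and were not taken as paired.

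The 41 genes and the other lists were chosen with earlier results of these data known, by symbol and with no threshold on values. Genes were described in full by a rule: the highest and the lowest log2FC of each role, up to 4 whose calls differ between genotypes, the 3 smallest p-values of each genotype comparison, and defining genes; others, the ratio pairs and the plasma cell sum without Sdc1 were picked after their values were seen. Alternatives were the pseudocount, filter, scaling, replicate block, groups fitted, limma-voom on recovered reads and leaving out each library.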

Additional observations from a re-analysis of the deposited data

How the results depend on the processing

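The counts of genes called with wounding depended on the scaling. In WT mice 13 genes were higher as deposited, 31 after median-ratio scaling and 31 with limma-voom on the recovered reads, and 4 were lower as deposited, 1 after scaling and 2 with limma-voom. In Act mice 18 were higher as deposited, 33 after scaling, 28 after quantile normalization, 32 with limma-voom and 13 with only the groups compared. Quantile normalization gave 19 higher and 3 lower in WT mice. In Act mice the lower genes were 2 as deposited, 1 without a filter, 1 after quantile normalization, 1 with only the groups compared, 0 after median-ratio scaling and 0 with limma-voom. Pseudocounts of 0.1 and 1 and a filter at 5 RPKM kept all these counts. Leaving out a library gave 8 to 14 higher and 4 to 7 lower genes in WT and 7 to 21 higher and 1 to 2 lower genes in Act mice. After scaling this was 29 to 32 and 1 to 2 in WT, and 29 to 33 and 0 to 1 in Act mice. Where 1 Act 5dw library was left, it was assumed to vary like the other groups. The counts in the genotype comparisons and the interaction were 0 under every alternative run.

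With the replicate block, 14 genes were higher and 4 lower in WT and 19 higher and 2 lower in Act mice. The numbers were taken to pair WT mice and the NS genotypes from correlations above 0.1 alone, while the block was fitted over all libraries. Pdia3 in WT mice is the call of a single gene that the block changed there.

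Of 920 values over the alternatives for the 20 genes described in full, 830 kept direction and call, 31 became called, 35 lost the call and 24 changed sign. None of the latter was called as deposited. Outside these 20 genes, Hyou1, Spcs3, Preb and Mia3 in WT and Preb and Mia3 in Act wounds also changed sign after median-ratio scaling, with Mia3 then called. In WT wounds the values after median-ratio scaling and limma-voom were 0.23 and 0.19 for Canx, 0.19 and 0.15 for Spcs2, 0.42 and 0.38 for Tmed10, and 0.16 and 0.12 for Atf6, and after quantile normalization 0.083 for Tmed10 and 0.065 for Atf6. In Act wounds they were 0.19 and 0.16 for Xbp1, 0.27 and 0.25 for Spcs2, 0.18 and 0.15 for Dnajc3, and 0.15 and 0.13 for Atf6, and after quantile normalization 0.14 for Spcs2, 0.00083 for Dnajc3 and 0.096 for Atf6. With a library left out, Tmed10 ranged from −0.14 to 0.029 in WT mice (highest without WT NS replicate 3) and from −0.016 to 0.15 in Act mice (lowest without Act NS replicate 1), and Spcs2 from −0.19 to 0.0089 in Act mice (highest without Act NS replicate 3). Median-ratio scaling moves all genes up together; for quantile normalization and the single libraries the cause was not tested.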
